A study of Olea europaea with 12 samples.

Results

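The genes described here are those of abscisic acid (ABA) in the flesh of the olive fruit: genes whose description in the deposited table names abscisic acid, an epoxycarotenoid dioxygenase, a protein phosphatase 2C (PP2C), or a kinase of the SRK2 or SAPK type. Of the 51008 genes in the table, 207 had such a description, and 148 of these were kept because they reached at least 1 FPKM (a fragment number scaled for transcript length and library total) in at least 3 of the 12 libraries. The other 59 stayed below that level and were not tested. By description the 148 genes comprised 2 of ABA synthesis, 4 of ABA breakdown, 10 receptors, 10 phosphatases of clade A, 7 kinases, 8 transcription factors, 2 abscisic stress-ripening proteins and 105 other PP2Cs. The name ABA genes rests on these descriptions alone. Most PP2Cs of the last role are known in Arabidopsis for other tasks or have no known task, and no gene's response to ABA was measured here.

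RNA was sequenced from fruit mesocarp, the oil-bearing flesh, of field-grown olive trees (Olea europaea) of the Greek oil cultivar Koroneiki. Fruits of like colour, size and shape were taken in 1 season at 4 ages, given in weeks after flowering (WAF): 17, 21, 26 and 30 WAF. Each age has 3 libraries, named A, B and C. No treatment was given, and all 4 groups share cultivar, field and season. Each age stands for 1 time of sampling, so fruit age and the field conditions of that time cannot be told apart.

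ABA is made from plastid carotenoids. 9-cis-epoxycarotenoid dioxygenase (NCED) cleaves an epoxycarotenoid, which is held to be the rate-limiting step, and abscisic-aldehyde oxidase makes the hormone itself, while ABA 8'-hydroxylases (the CYP707A family) start its breakdown. Bound to a PYR/PYL receptor, ABA blocks the clade A phosphatases 2C, which otherwise keep SnRK2 kinases inactive, and the freed kinases phosphorylate bZIP transcription factors of the ABI5/ABF family. In several fleshy fruits ABA accumulates around the onset of ripening.

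Each library summed to between 790578 and 845585 FPKM, and how many reads that stands for is unknown. Libraries of 1 age resembled each other more (Pearson's r across genes 0.992 to 0.996 in 12 pairs, on the log2(FPKM + 1) scale) than libraries of different ages (0.888 to 0.972 in 54 pairs); genes are not independent replicates. Markers of other fruit tissues were mostly near 0: 7 of 11 seed storage genes, 20 of 29 genes of endocarp and vessels and 26 of 32 genes of stomata and epidermis stayed under 1 FPKM in every library, and 2, 2 and 9 of them were at 0 throughout. The summed seed markers ranged from 72.1 to 78.4 FPKM at 30 WAF, against 170.0 to 174.0 FPKM at 17 WAF. Most of that sum came from 1 vicilin-like gene, LOC111393661, with a mean of 64.7 FPKM at 30 WAF, against 133 FPKM at 17 WAF. Summed markers of endocarp and vessels ranged from 137 to 143 FPKM at 30 WAF, against 116 to 119 FPKM at 17 WAF, and single genes went both ways. The cinnamyl alcohol dehydrogenase 1-like gene LOC111388752 averaged 47.5 FPKM at 30 WAF, against 23.7 FPKM at 17 WAF. The laccase-4-like gene LOC111404394 averaged 8.53 FPKM at 30 WAF, against 11.1 FPKM at 17 WAF. Summed markers of stomata and epidermis ranged over 39.8–41.1 FPKM at 17 WAF, 23.4–25.8 FPKM at 21 WAF, 15.3–15.9 FPKM at 26 WAF and 60.5–63.2 FPKM at 30 WAF, with most of the sum from 2 genes of 3-ketoacyl-CoA synthase 6, a wax enzyme. The part of other tissues in the results below was not tested, and in a bulk tissue fewer cells of a type and less RNA per cell cannot be told apart.

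Values are FPKM per library, or means ± SD of the 3 libraries of an age (n = 3). A log2 change is the difference of mean log2(FPKM + 1) between 2 ages, later minus earlier, and is too small a measure of change where FPKM are low. A gene is said to have risen or fallen where its p from limma, adjusted by the Benjamini-Hochberg method over all 26131 genes tested, was under 0.05. The comparisons share libraries, since each age enters more than 1 of them.

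Over the 4 ages, 134 of the 148 genes (90.5%) changed in limma's moderated F test, against 89.9% of all genes tested. Between 30 and 17 WAF, 65 genes (43.9%) were higher and 55 (37.2%) lower, against 34.9% higher and 38.9% lower among all genes tested. From 17 to 21 WAF, 29 genes (19.6%) rose and 52 (35.1%) fell, against 22.2% and 35.9% of all genes. In the next interval, 26 against 21 WAF, 40 (27.0%) rose and 53 (35.8%) fell, against 23.2% and 32.9%. The last interval, 30 against 26 WAF, had 74 genes (50%) that rose and 42 (28.4%) that fell, against 42% and 24.3%. These shares lie near the background, so the counts over all 148 genes say little about them, and the roles are given one by one. The split in the 3 intervals also moved with scaling: with median-of-ratios scaling 38 rose and 42 fell for 21 against 17 WAF, 45 rose and 35 fell for 26 against 21 WAF, and 62 rose and 49 fell for 30 against 26 WAF. Of all genes tested, 8441 rose and 8158 fell in the last interval with that scaling, where 10984 rose and 6343 fell as deposited. The genes varied widely among themselves, since the range of the 4 age means on the log2(FPKM + 1) scale was under 0.25 for 18 genes, at least 1 for 49 and at least 2 for 14. Among the 134 genes that changed, the age with the highest mean was 17 WAF for 47, 21 WAF for 17, 26 WAF for 10 and 30 WAF for 60.

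**Figure D1:**
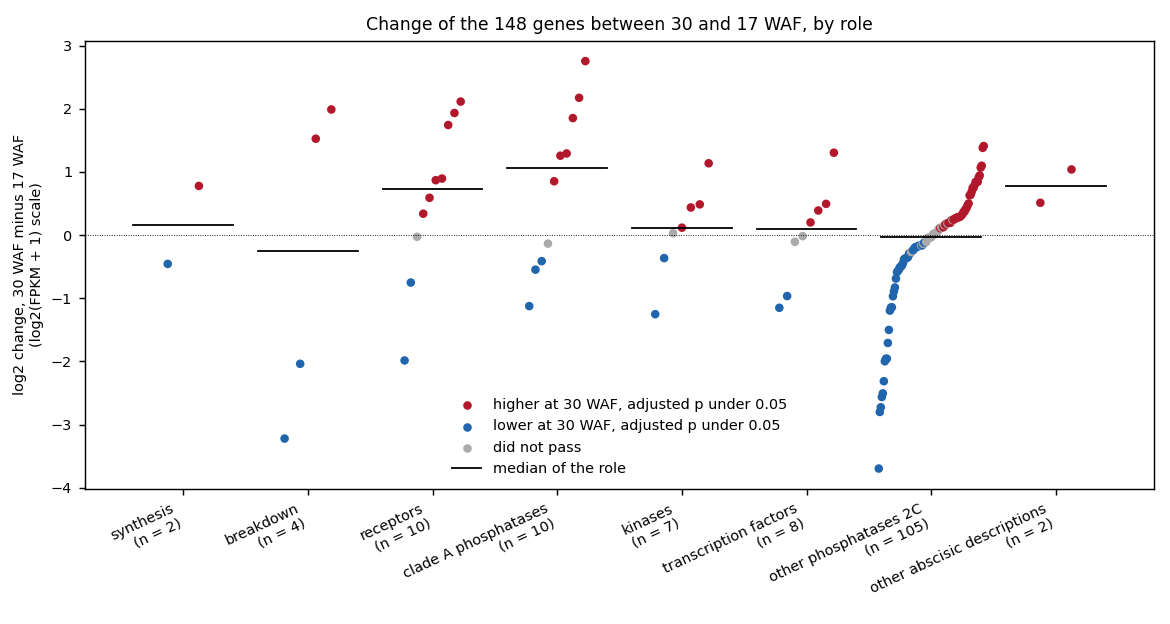
Each point is 1 of the 148 genes, plotted by role (x axis) and by its log2 change between 30 and 17 WAF (y axis, log2(FPKM + 1) scale), coloured by the limma test, with black bars at the medians of the roles. Among receptors 7 of 10 and among clade A phosphatases, taken by description, 6 of 10 were higher at 30 WAF, against 34.9% of all genes tested. Of the other phosphatases, 14 (13.3%) lay below -1 and 4 (3.81%) above 1. Changes of that size that passed the test made up 7.85% and 7.13% of all genes tested.

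Of the 9 genes described as enzymes of ABA synthesis in the rule, 2 were above the filter: 1 NCED and 1 abscisic-aldehyde oxidase. The NCED gene, LOC111402235 (NCED1, chloroplastic-like), did not pass in the first 2 intervals and rose in the last. It was at 14.92, 14.53 and 15.19 FPKM at 17 WAF, at 15.45, 15.51 and 13.87 at 21 WAF, at 13.35, 13.60 and 14.60 at 26 WAF, then at 24.50, 25.98 and 28.38 at 30 WAF. Every library at 30 WAF was above every earlier one, and the earlier ages overlapped. Its log2 change was 0.88 (SE 0.058, limma adjusted p = 3.1e-08) between 30 and 26 WAF, against 0.00 between 21 and 17 WAF and -0.10 between 26 and 21 WAF, neither of which passed. A second gene of the same description, LOC111395789, lay just outside the filter, where the 3 highest libraries went down to 0.88 FPKM. Its means went down, from 0.967 FPKM at 17 WAF to 0.543 at 21 WAF, 0.227 at 26 WAF and 0.213 at 30 WAF. Another below the filter, LOC111386602, averaged 0.497 FPKM at 30 WAF, against 0 FPKM at 17 WAF. Neither was tested.

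The abscisic-aldehyde oxidase gene LOC111405868, for the last step of synthesis, had another course and was lowest when NCED was highest. It had 6.87, 6.73 and 6.52 FPKM at 17 WAF, 11.38, 11.05 and 10.75 at 21 WAF, 8, 8.39 and 7.91 at 26 WAF, and 4.47, 4.72 and 4.67 at 30 WAF. No libraries of different ages overlapped. The log2 change was 0.65 (SE 0.046) for 21 against 17 WAF, then -0.41 for 26 against 21 WAF and -0.69 for 30 against 26 WAF, and the largest limma adjusted p of the 3 was 7.9e-06.

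In breakdown, genes for the same enzyme went opposite ways. The 2 genes described as 8'-hydroxylase 4 were higher at 30 WAF, and the 2 described as 8'-hydroxylase 1 were lower. LOC111410611 (8'-hydroxylase 4-like) was the most abundant gene of the role, with 48.17, 51.79 and 50.97 FPKM at 17 WAF, 49.59, 48.81 and 46.62 at 21 WAF, 69.78, 72.39 and 74.52 at 26 WAF, and 201.70, 202.53 and 203.79 at 30 WAF. Only the first 2 ages overlapped. Its log2 change was 0.57 between 26 and 21 WAF and 1.48 (SE 0.036, limma adjusted p = 1.1e-12) between 30 and 26 WAF. Its neighbour LOC111410612, of the same description, was much lower, at 4.14 ± 0.09 FPKM at 30 WAF, against 0.787 ± 0.14 FPKM at 17 WAF, with a log2 change of 1.53 (limma adjusted p = 1.0e-08). The 2 genes lie next to each other in the gene table, and how reads were split between such copies is not known.

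LOC111404289, an 8'-hydroxylase 1-like gene, ran the other way. It had 18.48, 18.24 and 17.95 FPKM at 17 WAF, 6.38, 6.45 and 6.43 at 21 WAF, 1.74, 1.2 and 1.6 at 26 WAF, and 1.16, 0.90 and 1.13 at 30 WAF. The libraries of each age lay below those of the age before, and the log2 change between 30 and 17 WAF was -3.22 (SE 0.079, limma adjusted p = 5.5e-13). LOC111398610, also 8'-hydroxylase 1-like, fell, rose and fell again, with 4.52 ± 0.38 FPKM at 17 WAF, 1.27 ± 0.27 at 21 WAF, 3.66 ± 0.27 at 26 WAF, then 0.343 ± 0.081 at 30 WAF. Its 3 log2 changes were -1.29, 1.05 and -1.80, and all passed the test. Summed FPKM of the 8'-hydroxylase 4 genes over that of the 8'-hydroxylase 1 genes gave a ratio of 2.25 ± 0.11 at 17 WAF, 6.40 ± 0.23 at 21 WAF, 14.3 ± 1.4 at 26 WAF, then 148 ± 13 at 30 WAF. A further 10 hydroxylase genes stayed below the filter.

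**Figure D2:**
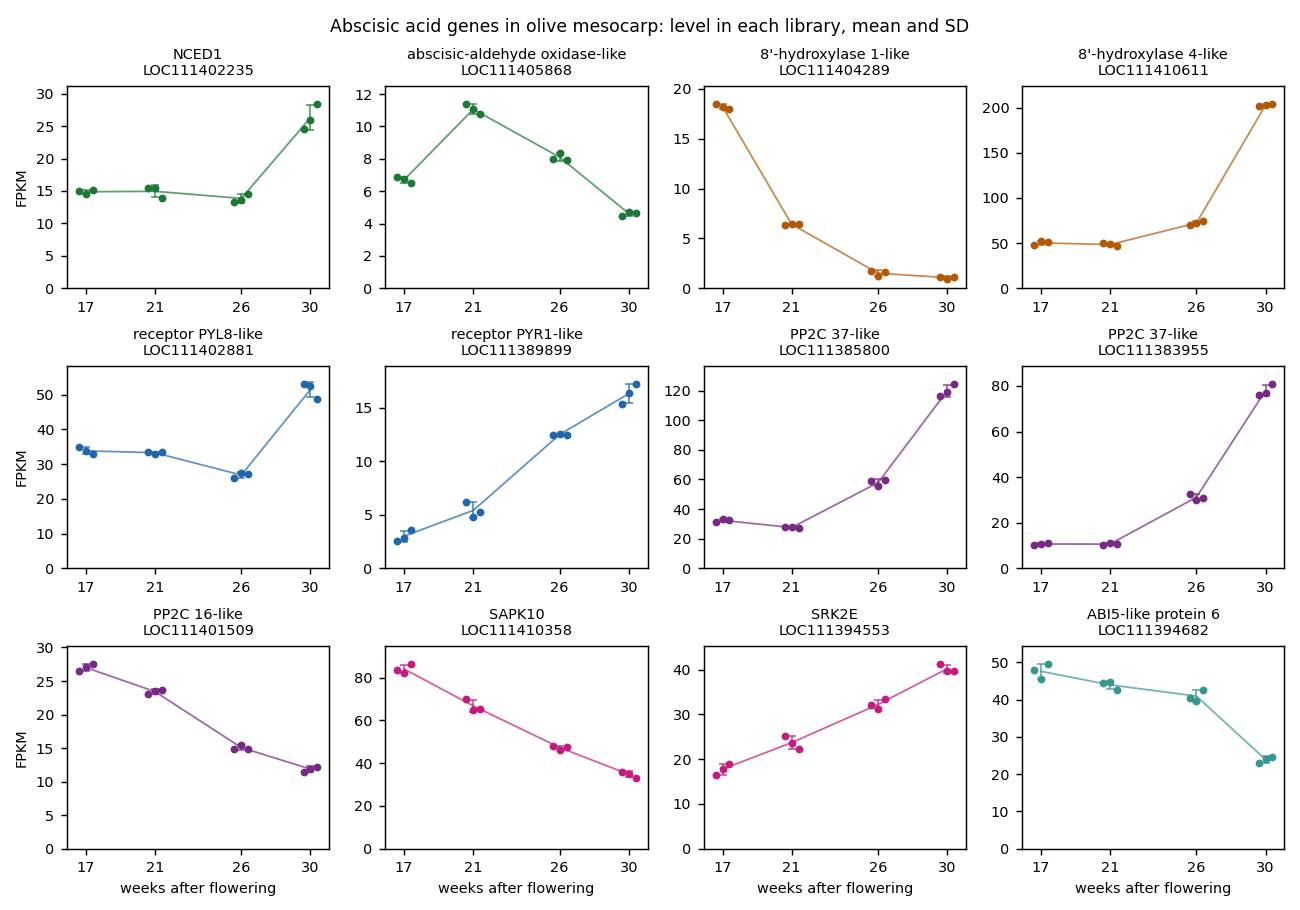
Each panel gives the FPKM (y axis, from 0) of 1 gene in each of the 12 libraries against weeks after flowering (x axis), with points for libraries and lines and bars for means and SD. NCED1, 8'-hydroxylase 4, the receptors and both PP2C 37 genes are highest at 30 WAF, while 8'-hydroxylase 1, PP2C 16, SAPK10 and ABI5-like protein 6 are highest at 17 WAF.

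Of 21 receptor genes, 10 were above the filter. Between 30 and 17 WAF 7 were higher, 2 lower and 1 did not pass, against 34.9% higher and 38.9% lower over all genes tested. The median log2 change of the 10 was 0.73, against -0.03 over all genes tested. The 10 genes summed to 105 ± 1.2 FPKM at 17 WAF, 121 ± 2.2 at 21 WAF, 106 ± 0.9 at 26 WAF, then 151 ± 3.3 at 30 WAF. Most of this level came from genes described as PYL8, a receptor that in Arabidopsis acts as a monomer: the 5 PYL8 genes summed to 126.6 ± 2.2 FPKM at 30 WAF, against 93.5 ± 1.0 at 17 WAF.

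LOC111410386 (PYL8-like) was the most abundant receptor over the 12 libraries, with 42.28, 43.75 and 42.99 FPKM at 17 WAF, 50.74, 49.78 and 51.17 at 21 WAF, 42.46, 39.01 and 38.75 at 26 WAF, and 40.12, 41.05 and 45.65 at 30 WAF. Its peak at 21 WAF passed the test on both sides (log2 changes 0.23 and -0.33), and the libraries at 30 and 17 WAF overlapped (log2 change -0.03, limma adjusted p = 0.63). LOC111402881, another PYL8-like gene, took the first place at 30 WAF, with 53.01, 52.63 and 48.89 FPKM there, against 34.93, 33.67 and 32.93 FPKM at 17 WAF. Between these ages it had 33.37, 33.03 and 33.51 FPKM at 21 WAF and a low of 26.00, 27.37 and 27.25 at 26 WAF. Its rise in the last interval was 0.91 on the log2 scale (SE 0.038, limma adjusted p = 2.6e-10). A further one, LOC111383476, rose to 21.5 ± 1.5 FPKM at 30 WAF, against 11.3 ± 0.26 at 17 WAF.

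The receptor with the largest rise on the log2(FPKM + 1) scale was LOC111389899 (PYR1-like), whose Arabidopsis namesake acts as a dimer. It had 2.60, 2.87 and 3.59 FPKM at 17 WAF, 6.23, 4.77 and 5.27 at 21 WAF, 12.51, 12.58 and 12.46 at 26 WAF, and 15.40, 16.40 and 17.21 at 30 WAF. Each age lay above the one before with no overlap, and the log2 change between 30 and 17 WAF was 2.12 (SE 0.092, limma adjusted p = 2.1e-10). With a pseudocount of 0.1, the rises of LOC111385923 (2.98) and LOC111392557 (3.15), both at lower levels, were larger than its own of 2.41. The 2 genes described as PYL4 went opposite ways. LOC111379366 had 0.11, 0.06 and 0 FPKM at 30 WAF, against 3.29, 3.24 and 3.01 FPKM at 17 WAF, the largest fall among receptors (log2 change -1.99, limma adjusted p = 1.0e-09). LOC111392557 had 3.44, 3.36 and 3.18 FPKM at 30 WAF, against 0.23, 0.25 and 0.40 FPKM at 17 WAF (log2 change 1.74, limma adjusted p = 3.4e-10). Both changed most in the first interval. With a pseudocount of 0.1 the change between 30 and 17 WAF was -4.45 for LOC111379366, so the scale bears much on genes this low.

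Of the other receptors, LOC111385923 (PYL8-like) rose to 4.90 ± 0.57 FPKM at 30 WAF, against 0.543 ± 0.13 at 17 WAF. LOC111391952 (PYL8-like) stood at 6.34 ± 0.37 FPKM at 30 WAF, against 4.81 ± 0.40 at 17 WAF (log2 change 0.34). LOC111411941 (PYL9-like) had 2.17 ± 0.36 FPKM at 30 WAF, against 0.70 ± 0.10 at 17 WAF (log2 change 0.90). LOC111368669 (PYL12-like) was lowest at 26 WAF, with 0.54 ± 0.35 FPKM there, and had 2.31 ± 0.31 FPKM at 30 WAF, against 4.66 ± 1.4 at 17 WAF (log2 change -0.75). All 4 passed the test between 30 and 17 WAF.

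The clade A phosphatases, the co-receptors that hold the kinases inactive, split into a rising and a falling group. Between 30 and 17 WAF 6 of 10 were higher, 3 lower and 1 did not pass, against 34.9% higher and 38.9% lower over all genes tested. The median log2 change of the 10 was 1.06, against -0.03 over all genes tested. Those higher were all 4 genes described as PP2C 37, known in Arabidopsis as PP2CA or AHG3, and the genes described as PP2C 77 (ABI2) and PP2C 24 (HAI3). Those lower were described as PP2C 7 (HAB2), PP2C 16 (HAB1) and PP2C 75 (AHG1). The summed level of the 10 genes was 230.2 ± 2.4 FPKM at 17 WAF, 192 ± 0.9 at 21 WAF, 270.4 ± 0.5 at 26 WAF, then 438 ± 10.3 at 30 WAF. Membership of these 10 rests on description. By the KEGG column, described below, the role would hold 12 genes, 7 higher and 5 lower, with a median log2 change of 0.57. Which list is nearer to clade A was not tested.

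LOC111385800 (PP2C 37-like) became the most abundant of them, with 31.39, 33.24 and 32.59 FPKM at 17 WAF, 27.89, 27.95 and 26.93 at 21 WAF, 58.70, 55.43 and 59.43 at 26 WAF, and 116.20, 118.91 and 124.22 at 30 WAF. No 2 ages overlapped, and it fell once, by 0.22 on the log2 scale between 21 and 17 WAF, before rising by 1.04 in each later interval. LOC111383955 (PP2C 37-like) had the largest rise of the role on the log2(FPKM + 1) scale, with 76.17, 76.99 and 80.72 FPKM at 30 WAF, against 10.39, 10.54 and 11.14 FPKM at 17 WAF. Its level at 21 WAF, 10.46, 11 and 10.51 FPKM, overlapped that at 17 WAF, and at 26 WAF it was at 32.73, 29.98 and 30.87 FPKM. The log2 change between 30 and 17 WAF was 2.76 (SE 0.042, limma adjusted p = 5.7e-15).

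The other genes of the rising group also had their low at 21 WAF, save 1. LOC111407408 (PP2C 37-like) had 25.5 ± 0.48 FPKM at 17 WAF, 15.3 ± 0.67 at 21 WAF, 33.4 ± 1.7 at 26 WAF, then 63.9 ± 1.6 at 30 WAF. LOC111405885 (PP2C 24) went through 21.0 ± 0.72, 11.3 ± 0.62, 24.4 ± 0.75 and 38.8 ± 1.3 FPKM at the same ages, and LOC111404019 (PP2C 77-like) through 21.7 ± 0.45, 18.2 ± 0.72, 29.2 ± 0.45 and 53.4 ± 1.6 FPKM. All 3 fell in the first interval and rose in the next 2. The exception, LOC111386928 (PP2C 37-like), was near 0 early and had 3.21, 3.94 and 3.74 FPKM at 30 WAF, against 0, 0.05 and 0.02 FPKM at 17 WAF (log2 change 2.17, or 4.93 with a pseudocount of 0.1, which is then the largest rise of the role).

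In the falling group, LOC111374716 (PP2C 7-like) was the most abundant clade A phosphatase until 26 WAF. It had 60.84, 61.30 and 67.51 FPKM at 30 WAF, against 85.82, 83.02 and 84.26 FPKM at 17 WAF, with 79.20, 78.47 and 80.26 FPKM at 21 WAF and 70.25, 77.42 and 71.58 at 26 WAF (log2 change between 30 and 17 WAF -0.41, limma adjusted p = 1.8e-06). LOC111401509 (PP2C 16-like) had the largest fall, to 11.44, 11.93 and 12.20 FPKM at 30 WAF, against 26.43, 27.12 and 27.48 FPKM at 17 WAF. Its libraries did not overlap between any 2 ages (23.07 to 23.72 FPKM at 21 WAF and 14.86 to 15.44 at 26 WAF), and the log2 change was -1.12 (SE 0.036, limma adjusted p = 7.9e-12). LOC111403913 (PP2C 75), at 2.50 ± 0.22 FPKM at 30 WAF, against 4.11 ± 0.29 at 17 WAF, changed by -0.55. LOC111388443 (putative PP2C 50) did not pass in any comparison, and its libraries spread widely within an age (1.86 to 4.15 FPKM at 17 WAF).

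The KEGG column of the deposited table gives a second view of this role. It marks 12 of the 148 genes as phosphatase of the ABA pathway (K14497), 9 of them among the 10 above, without LOC111388443. Using it was decided after the values were seen. The 3 added genes are counted elsewhere here among the other PP2Cs. Of these, LOC111373542 and LOC111407465 (both PP2C 50) fell by 0.50 and by 0.89 on the log2 scale between 30 and 17 WAF. The third, LOC111383876 (PP2C 6), rose by 0.28. Under this annotation 7 of 12 were higher and 5 lower at 30 WAF, with a median log2 change of 0.57, against 34.9% higher and 38.9% lower and a median of -0.03 over all genes tested. The summed FPKM of these 12 over that of the 10 receptors was 2.51 ± 0.015 at 17 WAF, 1.85 ± 0.038 at 21 WAF, 2.74 ± 0.024 at 26 WAF, then 3.09 ± 0.048 at 30 WAF, so the ratio was lowest at 21 WAF and highest at 30 WAF, with no overlap between ages.

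**Figure D3:**
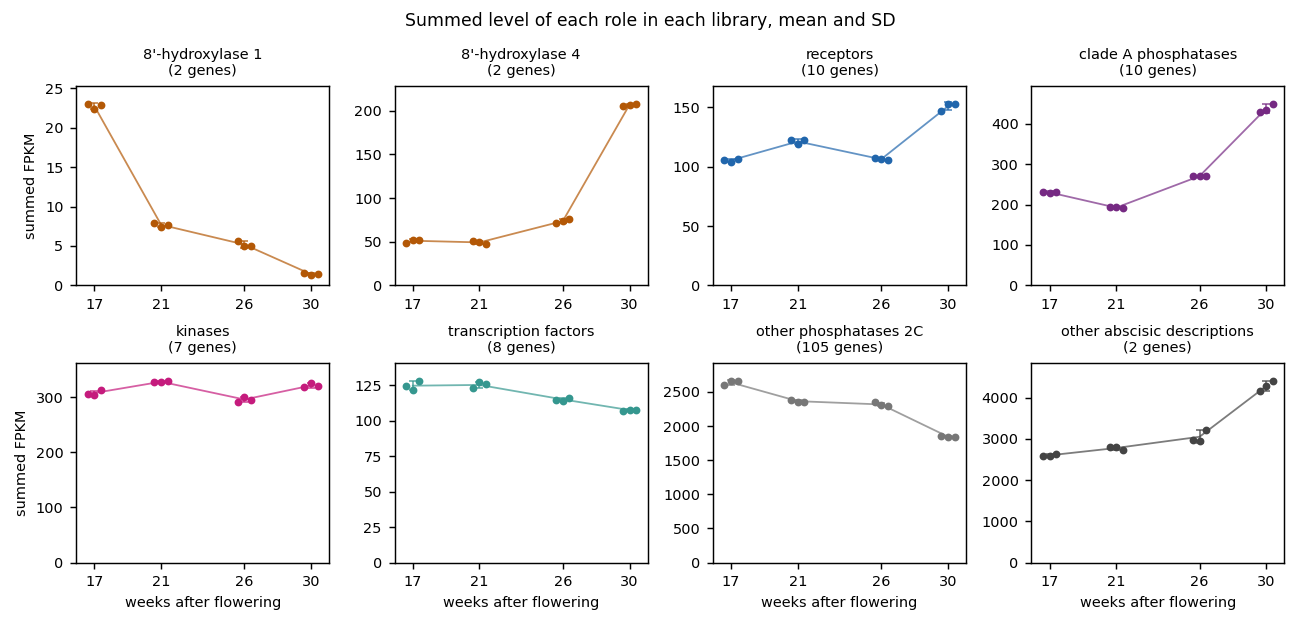
Each panel gives the summed FPKM (y axis, from 0) of the genes of 1 role, or of 1 kind of 8'-hydroxylase, in each library against weeks after flowering (x axis), with points for libraries and lines and bars for means and SD. Clade A phosphatases reached 438 FPKM and receptors 151 FPKM at 30 WAF, while the sum of the kinases, SRK2A genes included, stayed between 296 and 328 FPKM over the 4 ages.

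Of the kinases, 7 of 10 were above the filter. Their summed level stayed within a narrow band, at 308 ± 4.4 FPKM at 17 WAF, 328 ± 1.1 at 21 WAF, 296 ± 4.6 at 26 WAF, then 321 ± 3.7 at 30 WAF. Single genes moved in both directions: between 30 and 17 WAF 4 were higher, 2 lower and 1 did not pass, with a median log2 change of 0.12, against 34.9% higher and 38.9% lower and a median of -0.03 over all genes tested. Their sum over that of the receptors was 2.13 ± 0.031 at 30 WAF, against 2.92 ± 0.024 at 17 WAF. Part of the kinase sum comes from the SRK2A genes, named after a kinase not activated by ABA, which rose between 17 and 30 WAF. The level of the other kinases alone cannot be read from this sum.

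LOC111394553 (SRK2E), named after the Arabidopsis kinase of stomatal closure also known as OST1, rose in every interval. It had 16.53, 17.76 and 18.92 FPKM at 17 WAF, 25.15, 23.67 and 22.19 at 21 WAF, 32.02, 31.19 and 33.38 at 26 WAF, and 41.15, 39.65 and 39.73 at 30 WAF. Its log2 change between 30 and 17 WAF was 1.14 (SE 0.053, limma adjusted p = 4.0e-10), the largest rise of the role. Of the markers of stomata, the genes described as SLAC1 and FAMA averaged at most 0.04 FPKM at any age, while the MUTE-like gene LOC111382982 averaged 2.92 FPKM at 30 WAF, against 0.123 FPKM at 17 WAF. LOC111410358 (SAPK10), named after an ABA-activated kinase of rice, mirrored it. It had 83.71, 82.18 and 86.18 FPKM at 17 WAF, 69.81, 64.90 and 65.48 at 21 WAF, 48.01, 46.28 and 47.56 at 26 WAF, and 35.85, 35.05 and 33.22 at 30 WAF, with no overlap between ages (log2 change between 30 and 17 WAF -1.25, limma adjusted p = 4.5e-12). At 17 WAF it was the most abundant of the 7 kinases, and at 30 WAF it was the sixth.

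A second gene of that name, LOC111367875 (SAPK10-like), stood at 44.7 ± 1.3 FPKM at 30 WAF, against 43.7 ± 2.1 at 17 WAF, a log2 difference of 0.03 that did not pass. The SRK2A genes are named after an Arabidopsis kinase that responds to osmotic stress and is not activated by ABA. The most abundant kinase over all libraries was 1 of these, LOC111409834, with 71.65, 77.09 and 77.65 FPKM at 30 WAF, against 51.51, 54.20 and 54.93 FPKM at 17 WAF (log2 change 0.49, limma adjusted p = 2.8e-07). Its libraries at 21 and 26 WAF, 64.46 to 65.83 and 59.54 to 65.76 FPKM, overlapped. LOC111387450 (SRK2A) rose to 70.2 ± 0.17 FPKM at 30 WAF, against 51.6 ± 1.3 at 17 WAF (log2 change 0.44). LOC111383455 (SRK2A-like) rose by 0.12 on the log2 scale, and with TPM scaling the difference was 0.04 and did not pass. LOC111408120 (SAPK2-like) stood out by a peak at 21 WAF. It had 35.08, 38.19 and 38.02 FPKM at that age, against 18.70, 19.35 and 17.88 FPKM at 17 WAF, and went to 18.4 ± 0.72 FPKM at 26 WAF, then 14.3 ± 0.32 at 30 WAF.

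**Figure D4:**
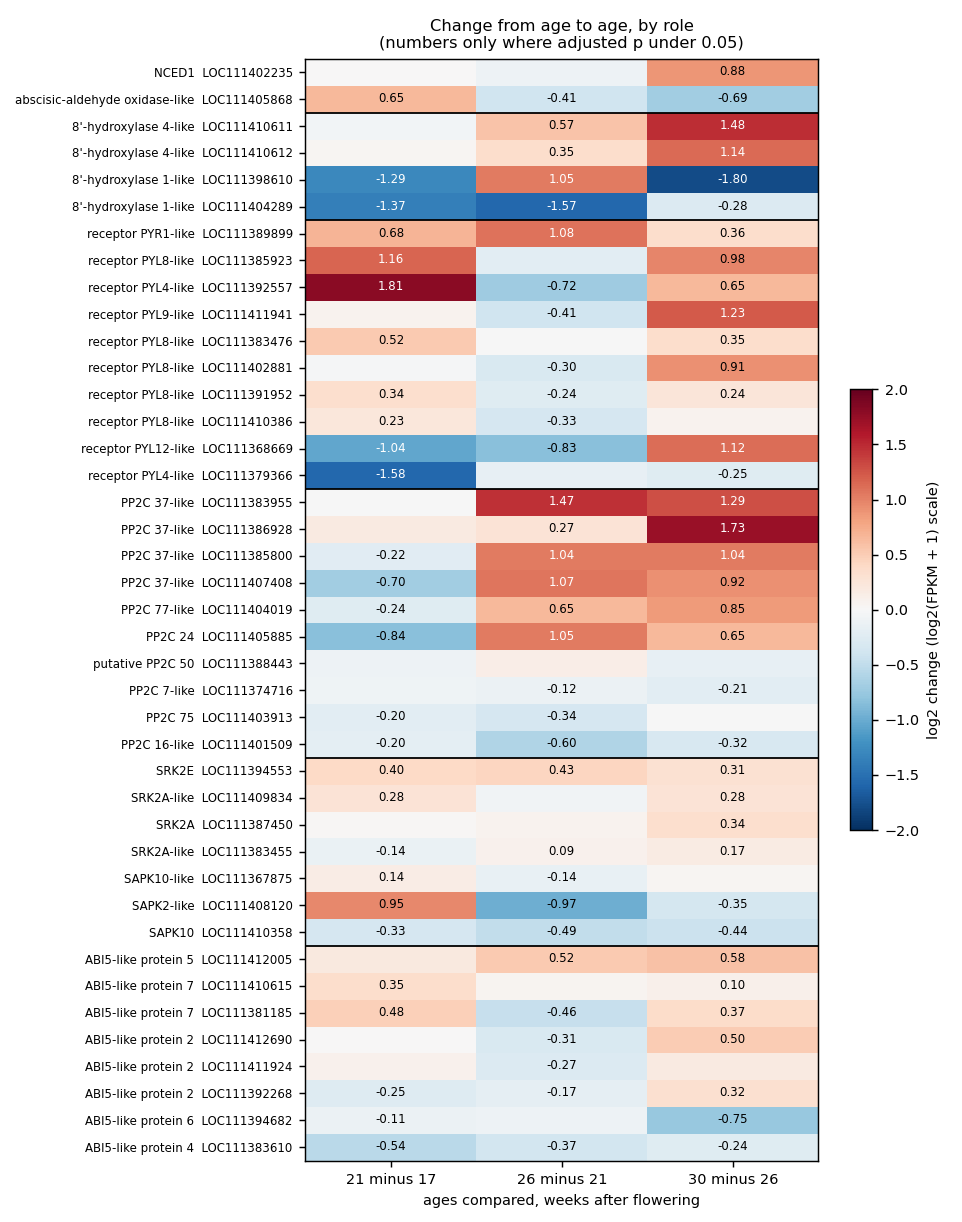
Rows are the 41 genes of the first 6 roles, ordered by role and by their change between 30 and 17 WAF, and columns are the 3 intervals between ages. Colour gives the log2 change on the log2(FPKM + 1) scale, from -2 (blue) to 2 (red), with the value printed where the limma adjusted p was under 0.05. Clade A phosphatases in the upper part of their block fell or did not pass in the first interval and rose in the 2 later ones.

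Of 14 genes described as ABSCISIC ACID-INSENSITIVE transcription factors, 8 were above the filter, all of the ABI5-like bZIP type. Between 30 and 17 WAF 4 were higher, 2 lower and 2 did not pass (median log2 change 0.09), against 34.9% higher and 38.9% lower over all genes tested (median -0.03). The summed level was 107 ± 0.5 FPKM at 30 WAF, against 124.5 ± 3.3 at 17 WAF. LOC111394682 (ABI5-like protein 6, ABF3 in Arabidopsis) was the most abundant factor at 17 WAF, and fell mainly in the last interval. It had 47.89, 45.48 and 49.48 FPKM at 17 WAF, 44.56, 44.68 and 42.69 at 21 WAF, 40.54, 39.68 and 42.68 at 26 WAF, and 23.02, 23.97 and 24.69 at 30 WAF. All libraries at 30 WAF were below all earlier ones, with a log2 change of -0.75 (SE 0.041, limma adjusted p = 4.4e-09) between 30 and 26 WAF.

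LOC111410615 (ABI5-like protein 7, ABF4 in Arabidopsis) passed it in level at 30 WAF, with 42.0 ± 0.41 FPKM there, against 29.5 ± 0.65 FPKM at 17 WAF, and most of its rise lay in the first interval (log2 change 0.35). The largest fall was that of LOC111383610 (ABI5-like protein 4, ABF1), with 9.45, 8.71 and 8.68 FPKM at 30 WAF, against 20.58, 21.03 and 21.64 FPKM at 17 WAF. At 21 and 26 WAF it had 13.49 to 14.80 and 10.25 to 11.15 FPKM, so that each age lay below the one before, and the log2 change between 30 and 17 WAF was -1.15 (SE 0.049, limma adjusted p = 1.7e-10). The largest rise was that of LOC111412005 (ABI5-like protein 5, ABF2), a gene of low level with 4.27, 4.71 and 5.30 FPKM at 30 WAF, against 1.38, 1.2 and 1.4 FPKM at 17 WAF (log2 change 1.30, limma adjusted p = 1.9e-08). LOC111381185, a second ABI5-like protein 7, alternated and stood at 11 ± 0.46 FPKM at 30 WAF, against 8.19 ± 0.39 at 17 WAF. The 3 genes described as ABI5-like protein 2 (AREB3 or DPBF3 in Arabidopsis) differed less. LOC111392268 and LOC111411924 did not pass between 30 and 17 WAF (log2 differences -0.11 and -0.02), and LOC111412690 rose by 0.20, a call at an adjusted p of 0.043 in limma that ended with a replicate block, a pseudocount of 0.1, no filter or TPM scaling, and without library A or C at 17 WAF, B at 21 WAF, C at 26 WAF or any 1 at 30 WAF.

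The 105 other PP2Cs carried far more transcript than the clade A genes, with a summed level of 1845 ± 5.1 FPKM at 30 WAF, against 2638 ± 35.9 at 17 WAF. Between these ages 39 (37.1%) were higher, 43 (41.0%) lower and 23 did not pass, against 34.9% and 38.9% of all genes tested. These shares lie near the background, and the median log2 change of -0.03 was the same as that of all genes tested. The changes were uneven in size: 14 of those lower (13.3% of the 105) fell by more than 1 on the log2 scale, while 4 of those higher (3.81%) rose by more than 1, against 7.85% and 7.13% of all genes tested. For 30 against 26 WAF the counts past that size were 11 lower (10.5%) and 1 higher (0.952%), against 3.99% and 3.69% of all genes.

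The 2 most abundant genes of the role were among those with large falls. LOC111403034 (PP2C 25, named after the Arabidopsis MAP kinase phosphatase AP2C1) had the highest mean of all 148 genes apart from the stress-ripening proteins. It had 346.88, 356.10 and 359.39 FPKM at 17 WAF, 304.63, 295.10 and 295.82 at 21 WAF, 243.85, 235.81 and 240.26 at 26 WAF, and 52.25, 52.56 and 53.07 at 30 WAF, a log2 change of -2.17 in the last interval (SE 0.025, limma adjusted p = 1.9e-15). LOC111394634 (PP2C 63) had the largest fall of all 148 genes on the log2(FPKM + 1) scale (-3.70 between 30 and 17 WAF). With a pseudocount of 0.1 the 8'-hydroxylase 1-like gene LOC111404289 (-3.99) and the PYL4-like gene LOC111379366 (-4.45) exceeded it. PP2C 63 LOC111394634 had 181.98, 183.79 and 178.94 FPKM at 17 WAF, 147.75, 140.21 and 143.34 at 21 WAF, 135.14, 136.42 and 136.67 at 26 WAF, and 13.31, 13.82 and 12.14 at 30 WAF. Its libraries at 30 WAF were far below all others, with a log2 change of -3.28 in the last interval (SE 0.039, limma adjusted p = 2.4e-15). Further genes of the same names, chosen after their values were seen, fell too. LOC111411977 (PP2C 63) had 22.8 ± 1.1 FPKM at 30 WAF, against 134 ± 1.4 at 17 WAF, and LOC111406025 (PP2C 25) had 3.91 ± 0.86 FPKM at 30 WAF, against 32.8 ± 0.50 at 17 WAF. Not every gene of these names did so: LOC111399691 (PP2C 25) had 1.79 ± 0.26 FPKM at 30 WAF, against 0.327 ± 0.10 at 17 WAF, a rise of 1.07 on the log2 scale.

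**Figure D5:**
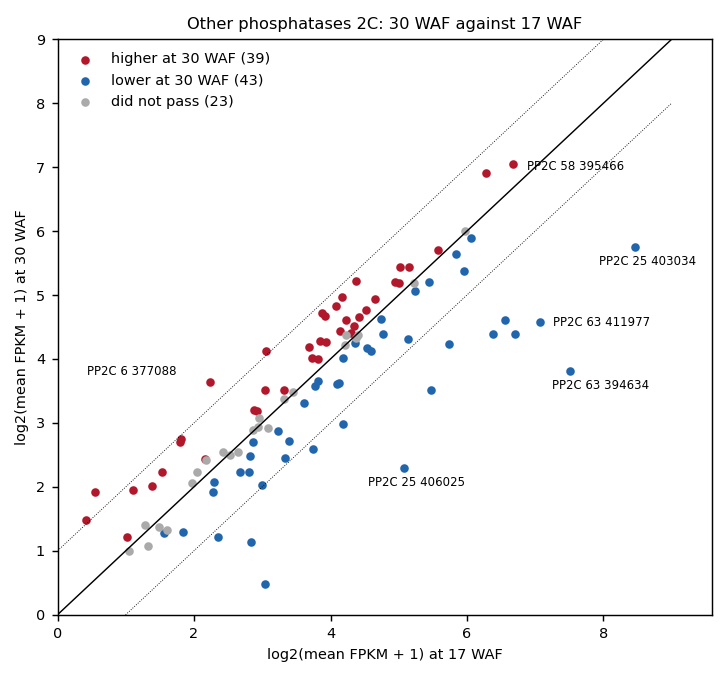
Each point is 1 of the 105 phosphatases 2C not put in clade A by description, with log2(mean FPKM + 1) at 30 WAF on the y axis and at 17 WAF on the x axis, coloured by the limma test. The solid line marks equal levels and the dotted lines a difference of 1 either way, and labels give the PP2C number and the last 6 digits of the gene identifier. The points far below the line include PP2C 63 and PP2C 25 genes.

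Rises among the other PP2Cs were smaller. LOC111395466 (PP2C 58) was among the 3 genes of the role with the highest mean and rose to 135.45, 130.78 and 126.56 FPKM at 30 WAF, against 98.97, 102.45 and 102.23 FPKM at 17 WAF (log2 change 0.37, limma adjusted p = 9.4e-07). LOC111377088 (PP2C 6) had the largest rise between 30 and 17 WAF among those that reached a mean of 5 FPKM, with 10.88, 11.97 and 11.60 FPKM at 30 WAF, against 3.54, 4 and 3.55 FPKM at 17 WAF (log2 change 1.41, limma adjusted p = 3.2e-10). LOC111393677 (PP2C 76) had 17.68, 17.01 and 14.40 FPKM at 30 WAF, against 10.11, 5.67 and 8.79 FPKM at 26 WAF. This gene varied between libraries of 1 age more than most, and its log2 change was 0.94 with an SE of 0.24 (limma adjusted p = 0.0038).

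Other courses had an extreme at a middle age. LOC111402920 (PP2C 57, named after the Arabidopsis phosphatase TAP38, which acts on light-harvesting proteins) had the largest rise of the first interval, to 23.68, 23.69 and 23.72 FPKM at 21 WAF, against 14.25, 13.11 and 13.56 FPKM at 17 WAF, and stood at 25.3 ± 1.9 FPKM at 30 WAF. LOC111388794 (PP2C 34) had the largest fall of that interval, to 2.74 ± 0.17 FPKM at 21 WAF, against 6.97 ± 0.20 at 17 WAF. For 26 against 21 WAF, the largest rise was that of LOC111397268 (PP2C 12), which peaked at 26 WAF with 18.96, 19.45 and 19.32 FPKM, against 8.93, 8.54 and 8.78 FPKM at 21 WAF, and was back at 10.4 ± 0.37 FPKM at 30 WAF. The largest fall of that interval was that of LOC111410839 (PP2C 73), to 2.31 ± 0.076 FPKM at 26 WAF, against 6.21 ± 0.68 at 21 WAF (log2 change -1.12). Just inside the filter lay LOC111388926 (PP2C 4), whose 3 highest libraries went down to 1.02 FPKM, and just outside it lay LOC111408136 (PP2C 6), where they went down to 0.91 FPKM.

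Both genes described as abscisic stress-ripening protein 2, small hydrophilic proteins whose tomato founding member is known from ripening fruit and water stress, were by far the most abundant of the 148. They neighbour each other in the gene table, so reads may have been split between them. LOC111408760 had 1689.53, 1665.20 and 1749.50 FPKM at 17 WAF, 1259.51, 1326.07 and 1283.44 at 21 WAF, 1050.23, 1041.94 and 1158.59 at 26 WAF, and 2261.87, 2441.37 and 2586.17 at 30 WAF. It fell in 2 intervals (log2 changes -0.40 and -0.25) and rose by 1.16 in the last (SE 0.050, limma adjusted p = 4.1e-10). LOC111408761 rose early, with 884.84, 927.57 and 889.79 FPKM at 17 WAF, 1550.17, 1473.00 and 1447.72 at 21 WAF, 1925.70, 1911.02 and 2069.31 at 26 WAF, and 1900.77, 1840.11 and 1819.21 at 30 WAF. Its last interval did not pass (log2 change -0.09, limma adjusted p = 0.06). Together they reached 4283 ± 121 FPKM at 30 WAF, against 2602 ± 33.5 at 17 WAF.

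Genes of the pathway outside these descriptions were taken by a list of names, of which 50 of 103 genes were above the filter. Between 30 and 17 WAF 31 of the 50 were higher, 16 lower and 3 did not pass, with a median log2 change of 0.45, against 34.9% higher and 38.9% lower and a median of -0.03 over all genes tested. Upstream of NCED, all 4 zeaxanthin epoxidase genes, whose enzyme makes the epoxycarotenoid precursors, were higher at 30 than at 17 WAF. In the last interval, 30 against 26 WAF, all 4 fell (median log2 change -0.33), against 24.3% of all genes tested. The most abundant, LOC111412311, had 18.8 ± 0.66 FPKM at 30 WAF, against 13.2 ± 1.3 at 17 WAF, after a plateau of 24.3 ± 1.4 at 21 WAF and 24.6 ± 0.44 at 26 WAF. LOC111396117 (NEOXANTHIN-DEFICIENT 1, needed for neoxanthin in tomato) fell to 6.59 ± 0.34 FPKM at 30 WAF, against 10.1 ± 0.57 at 17 WAF. LOC111410241 (xanthoxin dehydrogenase, the step after NCED) had 12.9 ± 0.066 FPKM at 30 WAF, against 18.4 ± 1.1 at 17 WAF, and its fall lay in the first interval. LOC111385378 (molybdenum cofactor sulfurase, which activates the aldehyde oxidase) rose to 9.39 ± 0.11 FPKM at 30 WAF, against 6.40 ± 0.19 at 17 WAF. LOC111390352 (violaxanthin de-epoxidase) did not pass, at 2.56 ± 0.13 FPKM at 30 WAF, against 2.39 ± 0.24 at 17 WAF.

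Among genes of signalling and response, LOC111408794 (bZIP transcription factor 46) rose in the last interval, with 55.89, 52.89 and 53.08 FPKM at 30 WAF, against 19.16, 20.29 and 19.85 FPKM at 26 WAF (log2 change 1.40, limma adjusted p = 3.4e-11). LOC111375764 (KEG, a ubiquitin ligase that in Arabidopsis marks ABI5 for degradation) rose to 52.9 ± 1.6 FPKM at 30 WAF, against 22.0 ± 0.86 at 17 WAF. LOC111406170 (AFP3, of a family that binds ABI5) rose to 11.1 ± 0.93 FPKM at 30 WAF, against 8.08 ± 0.21 at 17 WAF. Of the 3 AFP3 genes above the filter, 2 were higher and 1 lower between these ages, against 34.9% and 38.9% of all genes tested. The lower one, LOC111410023, named after its values were seen, fell to 3.98 ± 0.38 FPKM at 30 WAF, against 10.6 ± 0.35 at 17 WAF (log2 change -1.23). LOC111378375 (the anion channel SLAH1) rose to 11.8 ± 0.72 FPKM at 30 WAF, against 4.36 ± 0.24 at 17 WAF. LOC111396732 (ABCG25, an ABA exporter in Arabidopsis) did not pass between 30 and 17 WAF, at 1.19 ± 0.28 FPKM against 0.91 ± 0.079. It fell by 0.53 on the log2 scale between 26 and 21 WAF and rose by 0.65 in the last interval. A gene of like description, LOC111394125, named after its values were seen, rose to 1.79 ± 0.51 FPKM at 30 WAF, against 0.213 ± 0.064 at 17 WAF (log2 change 1.19). Both genes were low throughout. LOC111388390 (HVA22-like protein a, of a family first known as ABA-induced in barley) differed by 0.07 on the log2 scale between 30 and 17 WAF, and with TPM scaling that sign turned. Most of its family changed more. Of the 9 HVA22 genes above the filter 8 (88.9%) were higher and 1 (11.1%) lower at 30 WAF, against 34.9% and 38.9% of all genes tested. Their median log2 change was 0.67, against -0.03 over all genes tested.

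Genes of protective proteins, taken by name and not by a measured response to ABA, did not move as 1 group. LOC111404223 (low-temperature-induced 65 kDa protein, a classic ABA-responsive gene of Arabidopsis) had 2.38, 2.37 and 2.31 FPKM at 30 WAF, against 123.06, 121.08 and 121.09 FPKM at 17 WAF, a log2 change of -5.19 (SE 0.030, limma adjusted p = 3.4e-18). Of 13 late embryogenesis abundant genes 6 (46.2%) were higher, 6 (46.2%) lower and 1 did not pass, against 34.9% and 38.9% of all genes tested. The most abundant of the 13, LOC111405680, fell to 108 ± 3.9 FPKM at 30 WAF, against 750 ± 16 at 17 WAF. Such proteins are also abundant in seeds, and the seed marker sum of 72.1 to 78.4 FPKM at 30 WAF, against 170.0 to 174.0 FPKM at 17 WAF, moved the same way; its part in these falls was not tested. LOC111379830 (dehydrin DHN1-like) had a low at 21 WAF, with 2253.94, 2340.20 and 2378.18 FPKM at 17 WAF, 308.91, 292.99 and 286.18 at 21 WAF, 500.17, 481.62 and 521.29 at 26 WAF, and 1522.34, 1566.00 and 1673.44 at 30 WAF.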

How the data were processed

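The authors' deposited table gives FPKM per gene and library, per the file headers. The submitters' processing notes list RSEM, Bowtie2 2.2.5, HISAT2 2.0.4 and StringTie 1.0.4 without saying what each did. Which build the reads were assigned to is not stated in the sources used here. Gene descriptions in the deposited table name the wild olive (Olea europaea var. sylvestris), while the fruit was of the cultivar Koroneiki. Per the labels' protocols, RNA from a CTAB extraction, treated with DNase on a column, was sequenced by DNBseq. The labels do not say that libraries A, B and C came from separate trees, so the spread that p-values measure may be technical.

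Depth is unknown: of ratios between libraries among values up to 0.3 FPKM, 11.4 to 16.3% lay within 0.1 (log2) of the most frequent one, so reads could not be recovered and no interval for counting error is given. Genes of near-identical sequence, and overlapping antisense genes, are uncertain. The 26131 genes with at least 1 FPKM in at least 3 libraries were fitted with limma 3.58.1 under R 4.3.3 on the log2(FPKM + 1) scale, with 1 mean per age, trended empirical Bayes (8 residual and 4.32 prior degrees of freedom), 2-sided tests, Benjamini-Hochberg adjustment over all genes and a threshold of 0.05. The fit was tested on simulated data. Names are those of the table, matched by identifier for all 148 genes to the RefSeq gene table of assembly O_europaea_v1. Sequences were not used here.

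The genes, roles and lists were chosen with earlier results of these data known. Named are all members of the first 6 roles; of the others, the 3 with the highest mean and, per comparison, the largest rise and fall past the test among genes whose higher age reached a mean of 5 FPKM; and the most abundant gene of each pathway kind. Alternatives were another pseudocount, filter or scaling, leaving out each library, a fit of 2 ages and a block for the letters.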

Additional observations from a re-analysis of the deposited data

How the results depend on the processing

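Counts of called genes were recomputed with a pseudocount of 0.1, without a filter, with a mean of at least 5 FPKM, with TPM and median-of-ratios scaling, with a fit of only the 2 ages compared, with a replicate block and without each library in turn. Most stayed within 1.5 times the values reported. With a mean of at least 5 FPKM, 49 genes were higher at 30 against 26 WAF, since fewer genes were tested (105 of the 148), and with median-of-ratios scaling 35 were lower at 26 against 21 WAF. The fit of 2 ages gives no test over 4 ages.

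The replicate block gave 64 genes higher and 55 lower at 30 against 17 WAF, 74 and 42 for 30 against 26, 38 and 52 for 26 against 21, 29 and 53 for 21 against 17 WAF, and 136 changed over the ages. Same-letter libraries did not deviate together more than others (correlations -0.0861 to 0.0742 over 18 pairs, against -0.148 to 0.15 over 36 different-letter pairs). With 3 libraries per age, whose deviations sum to 0, such correlations cannot tell whether the letters mark shared trees or plots.

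Without each library in turn, the genes higher and lower numbered 28 to 30 and 46 to 53 for 21 against 17 WAF, 35 to 40 and 42 to 54 for 26 against 21, 68 to 75 and 38 to 42 for 30 against 26, and 62 to 65 and 50 to 56 for 30 against 17 WAF, and 132 to 136 changed over the ages. Of 212 calls among 264 comparisons of named genes, 190 held wherever they could be recomputed and 22 did not. The filter on a mean of 5 FPKM left 47 calls without a value; of the 165 with a value under all 19 alternatives, 148 held. Those that did not hold were of at most 0.28 on the log2 scale. Signs turned for LOC111388390 at 30 against 17 WAF (-0.003 with TPM scaling), and for LOC111410615 and LOC111375764 at 30 against 26 WAF (both -0.010 with median-of-ratios scaling); the cause was not tested. Median-of-ratios scaling moved the median change of all genes to between 0 and 0.011, against -0.069 to 0.10 as deposited.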

Other observations

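Genes of the ABA pathway that neither the descriptions nor the naming rule covered were looked at after their values were seen. LOC111388814, an abscisate beta-glucosyltransferase-like gene whose enzyme stores ABA as its glucose ester, rose in every interval, with 10.9 ± 0.43 FPKM at 17 WAF, 17.8 ± 0.88 at 21 WAF, 21.2 ± 0.95 at 26 WAF, then 31.0 ± 1.5 at 30 WAF (log2 change between 30 and 17 WAF 1.43, limma adjusted p = 2.3e-11). The anion channel gene LOC111389038 (SLAH2-like) had 13.7 ± 0.25 FPKM at 30 WAF, against 0.08 ± 0.052 at 17 WAF. A second dehydrin gene, LOC111401949 (DHN1-like), also had lower levels at the middle ages, though its lowest was at 26 WAF, with 774 ± 32 FPKM at 17 WAF, 160 ± 6.5 at 21 WAF, 132 ± 6.3 at 26 WAF, then 876 ± 51 at 30 WAF. The zeaxanthin epoxidase gene LOC111383342 rose to 20 ± 0.6 FPKM at 30 WAF, against 5.69 ± 0.11 at 17 WAF, with its highest level, 24.6 ± 1.3, at 26 WAF.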
